A study of Mus musculus with 4 samples.

Results

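The muscle miRNAs described here are mmu-miR-1a-3p, mmu-miR-1b-5p, mmu-miR-133a-3p and mmu-miR-206-3p, 4 of the 847 rows of a table of miRNA read counts. They were taken by name. The table covers macrophages sorted from C57BL/6J mice, with 1 library for each of 4 groups: AML bone marrow (BM) macrophages, normal BM macrophages, AML spleen macrophages and normal spleen macrophages. AML mice carried transplanted GFP+ MLL-AF9 acute myeloid leukaemia (AML) cells, given without irradiation at 6 to 8 weeks of age, and were sampled at 18 days, whereas such mice survive 35 to 40 days. The MLL-AF9 fusion joins a part of MLL to a part of AF9 and causes AML. The labels give the same age for the mice titled normal, and the protocol speaks of sorting at 0 and 18 days. They call the cells of AML mice leukaemia-associated macrophages, and the stated question is how their miRNAs differ from those of macrophages at homeostasis. Neither the sort markers nor the number of mice behind a library is stated in the labels.

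Muscle miRNAs, often called myomiRs, are made at high levels in heart and skeletal muscle under the control of myogenic transcription factors. miR-1 promotes muscle differentiation. miR-133a, transcribed together with miR-1, acts on myoblast proliferation and on serum response factor. miR-206 is largely restricted to skeletal muscle, where it takes part in regeneration and at the nerve-muscle synapse. miR-1 and miR-206 belong to the same seed family, the seed being the stretch near the 5′ end that pairs with target mRNAs. Muscle, not macrophages, is their main known source, while miR-142 and miR-223 mark haematopoietic and myeloid cells.

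The miR-206 sequences are shown because miR-206-3p was the 1 member with a mature sequence in the RefSeq table used here. The seed it shares with miR-1 could therefore not be checked here. The sequences come from RefSeq on GRCm38.p6, chromosome 1, plus strand. Capitals mark the seed (bases 2 to 8) in the mature miRNA and the mature 3p arm in the hairpin. miR-499-5p, a muscle miRNA made from an intron of a myosin gene, is from chromosome 2, plus strand, and has another seed, also in capitals.
miR-206-3p: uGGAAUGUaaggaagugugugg
miR-206 hairpin: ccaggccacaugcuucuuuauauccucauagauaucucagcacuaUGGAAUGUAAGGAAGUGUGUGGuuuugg
miR-499-5p: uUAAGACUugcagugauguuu

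Of the 4 names, 1 matched a mature sequence in the RefSeq table used here. The mature arm of miR-206 spans bases 46 to 67 of its 73-base hairpin. Mir206 and Mir133b are neighbours on chromosome 1, Mir1a-1 and Mir133a-2 on chromosome 2, and Mir1a-2 and Mir133a-1 on chromosome 18. Each of these pairs lies on 1 strand. Mir1b overlaps Mir1a-2 and is annotated on the opposite strand. The miR-1b-5p row held 2454 counts in AML BM, 6035 in normal BM, 1919 in AML spleen and 734 in normal spleen. The miR-1a-3p row held 2454 counts in AML BM, 6047 in normal BM, 1919 in AML spleen and 735 in normal spleen. The rows were thus equal in both AML libraries and differed by 12 counts in normal BM and 1 count in normal spleen. They were read as the same reads, so the 4 rows give 3 separate measurements, and values of miR-1a-3p below stand for both rows.

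Total counts were 271209 in AML BM, 206652 in normal BM, 180227 in AML spleen and 435492 in normal spleen. With 1 library per group there is no replicate check, so every comparison is between libraries, and no p-value is given for a pair of them. Levels are given in CPM, counts per 1000000 reads after scaling of the library. Brackets hold 95% exact intervals unless said otherwise. With 1 library per group these intervals cover counting error only. The files used carry no molecular identifiers, so amplified copies of a molecule cannot be told from separate molecules, and the intervals can be too narrow. A call of higher or lower needed a ratio of at least 2 or at most 0.5, an interval without 1, and 30 or more counts in one of the libraries. In these bulk libraries, fewer cells of a type and less RNA per cell cannot be told apart.

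Muscle miRNAs were highest in the normal BM library, intermediate in both AML libraries and lowest in the normal spleen library. In BM, miR-1a-3p stood at 8752 CPM [8409 to 9105] in the AML library and 29160 CPM [28429 to 29904] in the normal library. In spleen it stood at 9946 CPM [9506 to 10401] in the AML library and 1875 CPM [1741 to 2015] in the normal library. By count it ranked 24th of all rows in AML BM, 9th in normal BM, 24th in AML spleen and 60th in normal spleen. The 3 rows without miR-1b-5p made up 1.08% [1.04 to 1.12] of the AML BM reads and 3.57% [3.49 to 3.65] of the normal BM reads. They made up 1.31% [1.26 to 1.36] of the AML spleen reads and 0.208% [0.194 to 0.222] of the normal spleen reads. With the repeated row counted again, as deposited, these shares were 1.99% in AML BM, 6.49% in normal BM, 2.37% in AML spleen and 0.376% in normal spleen.

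miR-206-3p, the skeletal-muscle member, had 351 counts in AML BM, 986 in normal BM, 250 in AML spleen and 129 in normal spleen. In BM these are 1252 CPM [1124 to 1390] in the AML library and 4755 CPM [4462 to 5061] in the normal one. In the spleen they are 1296 CPM [1140 to 1467] in the AML library and 329 CPM [275 to 391] in the normal one. The 2 AML libraries overlapped in counting error, and the other neighbours in the order did not. miR-133a-3p had 129 counts in AML BM, 335 in normal BM, 189 in AML spleen and 40 in normal spleen. Its levels in BM were 460 CPM [384 to 547] in the AML library and 1615 CPM [1447 to 1798] in the normal library. In spleen they were 980 CPM [845 to 1130] in the AML library and 102 CPM [72.9 to 139] in the normal library. No pair of libraries overlapped in counting error for miR-133a-3p, nor for miR-1a-3p.

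**Figure D1:**
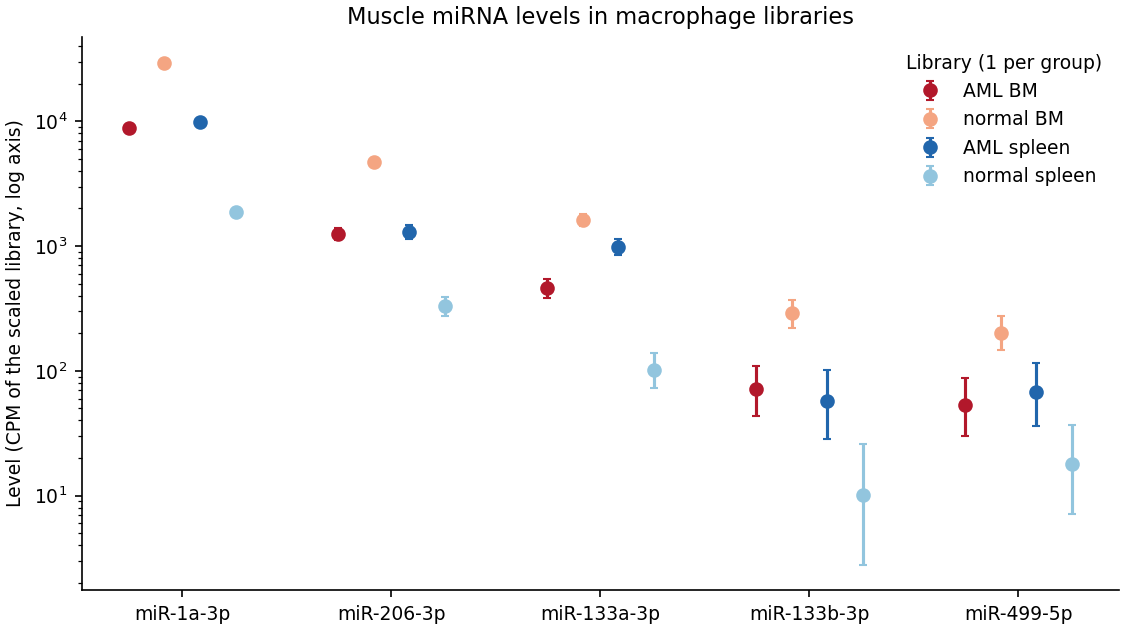
Level of 5 muscle miRNAs in CPM of the scaled library on a log axis, 1 point for each library (AML BM, normal BM, AML spleen, normal spleen from left to right), with 95% counting intervals as bars. For every miRNA shown the normal BM point is the highest and the normal spleen point the lowest; miR-1a-3p is at 8752 CPM in AML BM, 29160 CPM in normal BM, and 9946 CPM (AML) and 1875 CPM (normal) in spleen.

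Against normal BM, the AML BM library had less of every member. All 4 members were called lower, 3 of them separate, where 12.0% of the 216 miRNAs compared were. The log2 ratio, AML BM over normal BM, was -1.74 [-1.80 to -1.67] for miR-1a-3p, a ratio of 0.300. For miR-206-3p it was -1.93 [-2.11 to -1.75] and for miR-133a-3p -1.81 [-2.12 to -1.51], and all 3 intervals overlapped. The median over the 4 members, with the repeat row miR-1b-5p among them, was -1.77, and that over all 216 miRNAs was 0.00292. Counted from the lowest ratio, miR-206-3p was at place 8, miR-133a-3p at 10 and miR-1a-3p at 11 of 216. Over all miRNAs 29 were higher and 26 lower, a split of 39 and 19 when libraries were scaled on totals without the 10 most abundant miRNAs; all 4 members stayed lower there.

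Against normal spleen, the AML spleen library had more of every member. All 4 members were called higher, where 25.0% of the 216 miRNAs compared were. The log2 ratio, AML spleen over normal spleen, was 2.41 [2.28 to 2.53] for miR-1a-3p, which is 5.31-fold. It was 1.98 [1.67 to 2.30] for miR-206-3p, or 3.94-fold, and 3.26 [2.76 to 3.79] for miR-133a-3p, or 9.60-fold. The interval of miR-133a-3p lay above those of the other separate members. The median over the 4 members, again with the repeat row miR-1b-5p, was 2.41, against -0.25 over all 216. From the highest ratio, miR-133a-3p was at place 5, miR-1a-3p at 19 and miR-206-3p at 30. Over all miRNAs 54 were higher and 46 lower, and 51 and 68 with DESeq2 size factors; all 4 members stayed higher.

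The AML ratio of each member thus had a negative sign in BM and a positive sign in spleen. The difference of the log2 ratios, spleen minus BM, was 5.08 for miR-133a-3p (95% Wald interval 4.50 to 5.65). It was 4.14 (4.0 to 4.28) for miR-1a-3p and 3.90 (3.55 to 4.26) for miR-206-3p. Among the 186 miRNAs compared in both tissues with a count in every library, these stood at places 2, 3 and 6 from the highest, and the repeat row miR-1b-5p at place 4. With 1 library for each tissue and state, whether the leukaemia effect differs between tissues could not be tested.

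In a fit with state and tissue as additive terms over the 4 libraries (edgeR's quasi-likelihood test with Benjamini-Hochberg adjustment), no member passed for either term. This fit has 1 residual degree of freedom and takes as noise whatever differs in the AML effect from BM to spleen. For state, 0.0% of 246 miRNAs were called, 0 had an unadjusted p under 0.05 and DESeq2 called 0. The fitted log2 difference of AML over normal was 0.33 for miR-1a-3p, 0.70 for miR-133a-3p and 0.02 for miR-206-3p, each with an edgeR adjusted p of 0.998. For tissue, 0.0% were called by edgeR, 15 miRNAs had an unadjusted p under 0.05, and DESeq2 called 8, none of them a member. The fitted log2 difference of spleen over BM was -1.89 for miR-1a-3p and -1.90 for miR-206-3p, with an edgeR adjusted p of 0.758 each. It was -1.43 for miR-133a-3p, with an edgeR adjusted p of 0.806.

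Between tissues, the members were far lower in normal spleen than in normal BM, and the AML libraries lay close together. These comparisons share libraries with those of AML against normal. In normal spleen against normal BM, 4 of 4 members were lower, where 35.5% of the 234 miRNAs compared were. The log2 ratio was -3.96 [-4.07 to -3.85] for miR-1a-3p, -3.99 [-4.50 to -3.51] for miR-133a-3p and -3.85 [-4.13 to -3.59] for miR-206-3p. All 3 intervals overlapped. In AML spleen against AML BM, 1 of 4 members was higher, where 13.7% of the 211 compared were. No member was lower, where 45 of the 211 were. The member called higher was miR-133a-3p, with a log2 ratio of 1.09 [0.76 to 1.42]. The log2 ratio was 0.18 [0.10 to 0.27] for miR-1a-3p and 0.05 [-0.19 to 0.29] for miR-206-3p.

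**Figure D2:**
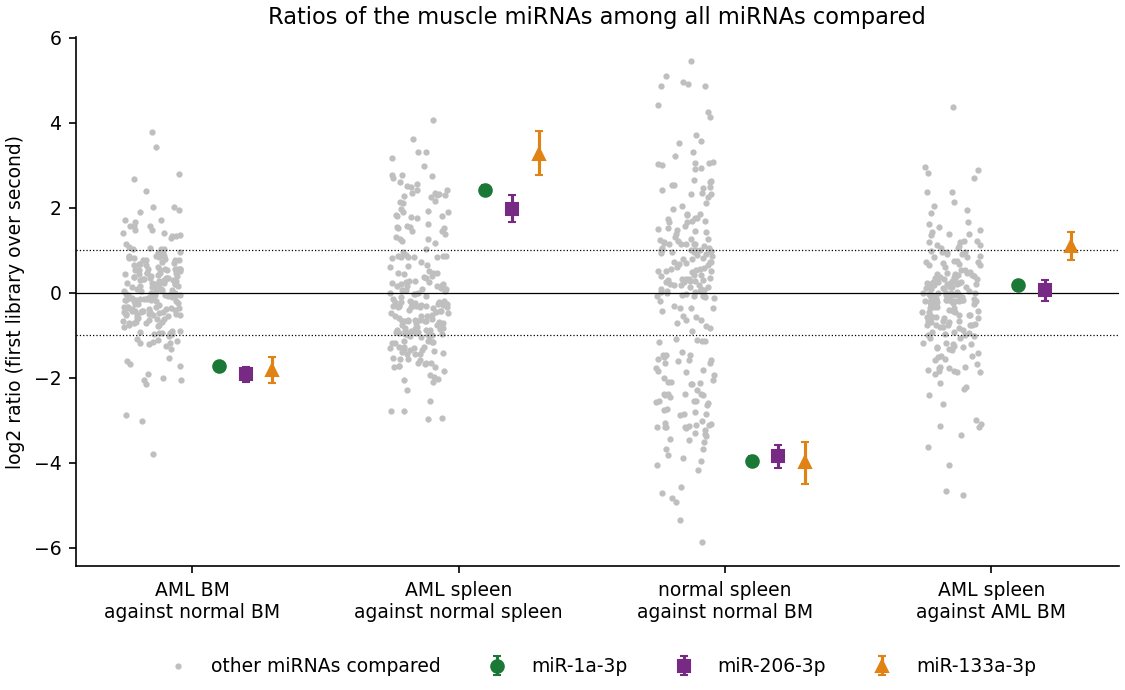
log2 ratio (first library over second) in 4 comparisons, with the members as coloured symbols with 95% counting intervals and the other miRNAs compared as grey points; dotted lines mark 2-fold. The members lie between -1.93 and -1.74 in AML BM against normal BM, between 1.98 and 3.26 in AML spleen against normal spleen, and between -3.99 and -3.85 in normal spleen against normal BM.

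Ratios between members within a library need no scaling between libraries. Ligation and amplification differ between miRNA sequences, so only the change of such a ratio from library to library is described. For every 1000 reads of miR-1a-3p there were 52.6 reads [43.7 to 62.8] of miR-133a-3p in AML BM and 55.4 [49.5 to 61.9] in normal BM. In spleen there were 98.5 [84.4 to 114] in the AML library and 54.4 [38.6 to 74.8] in the normal library. The ratio of miR-133a-3p to miR-1a-3p was 1.81-fold (Wald interval 1.27 to 2.57) in AML spleen relative to normal spleen and 1.87-fold (1.49 to 2.36) relative to AML BM. In AML BM relative to normal BM it was 0.949-fold (0.770 to 1.17), and in normal spleen relative to normal BM 0.982-fold (0.702 to 1.38). The AML spleen library was therefore the one that stood apart for miR-133a-3p.

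For every 1000 reads of miR-1a-3p there were 143 reads [128 to 160] of miR-206-3p in AML BM and 163 [152 to 174] in normal BM. There were 130 [114 to 149] in AML spleen and 176 [144 to 212] in normal spleen. Relative to the normal library of its tissue, the ratio was 0.877-fold (Wald interval 0.770 to 1.00) in AML BM and 0.742-fold (0.590 to 0.933) in AML spleen. Both AML libraries had the lower ratio of their tissue, with an interval in BM that reached to just under 1. Among reads of the 3 separate members, miR-1a-3p held between 81.3% and 83.6% in every library, while miR-133a-3p held 8.02% in AML spleen and 4.40% to 4.55% elsewhere.

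**Figure D3:**
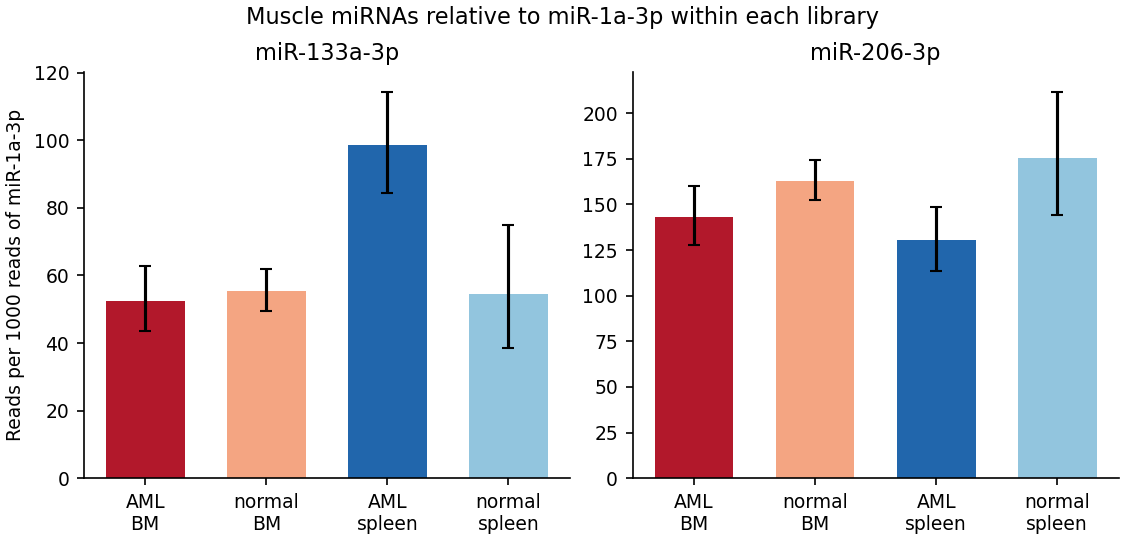
Reads of miR-133a-3p (left) and miR-206-3p (right) per 1000 reads of miR-1a-3p in each library, with 95% exact counting intervals; bars start at 0. The miR-133a-3p bar of AML spleen is at 98.5 and the other 3 are between 52.6 and 55.4.

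Of the 18 names in a list of muscle miRNAs, 7 had a row, which are the members plus miR-133a-5p, miR-133b-3p and miR-499-5p; the other 11 were not analysed here. miR-133b-3p is nearly identical to miR-133a-3p, so reads could be split between those rows and both levels are uncertain. It had 20 counts in AML BM, 60 in normal BM, 11 in AML spleen and 4 in normal spleen. Its log2 ratio was -2.02 [-2.83 to -1.27] in AML BM against normal BM, which was called lower. In AML spleen against normal spleen it was 2.48 [0.73 to 4.59], with too few reads to be called. miR-133b-3p had 57.0 reads [34.4 to 89.4] per 1000 reads of its genomic neighbour miR-206-3p in AML BM and 60.9 [46.1 to 79.0] in normal BM. It had 44.0 [21.7 to 80.1] in AML spleen and 31.0 [8.32 to 81.3] in normal spleen, and all 4 intervals overlapped. Per 1000 reads of miR-133a-3p, miR-133b-3p had 58.2 reads in AML spleen and 155 in AML BM, 0.375-fold (Wald interval 0.174 to 0.810). Relative to normal spleen the same ratio in AML spleen was 0.582-fold (0.176 to 1.92), on 11 and 4 counts of miR-133b-3p, a difference not detectable at this depth.

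miR-499-5p, of heart and slow skeletal muscle, had 15 counts in AML BM, 42 in normal BM, 13 in AML spleen and 7 in normal spleen. It was called lower in AML BM than in normal BM, at -1.92 [-2.88 to -1.04], and stood at 1.92 [0.48 to 3.48] in AML spleen against normal spleen, not called for lack of reads. For every 1000 reads of miR-1a-3p it had 6.11 reads in AML BM, 6.95 in normal BM, 6.77 in AML spleen and 9.52 in normal spleen, with overlapping intervals. miR-133a-5p, the other arm of miR-133a, had 2 counts in AML BM, 5 in normal BM, 0 in AML spleen and 4 in normal spleen. The count of 0, taken as 3 counts, allows up to 15.5 CPM in AML spleen. In all, 6 of 6 list rows compared were lower in AML BM against normal BM, where 12.0% of all miRNAs compared were. These are the 4 members, miR-133b-3p and miR-499-5p, with a median log2 ratio of -1.87. Both miR-133b-3p and miR-499-5p reached the count minimum for a call only in normal BM, where they were highest. The filter thus favoured a call of lower for them. The 6 of 6 therefore adds no independent support to the calls of the 4 members. In AML spleen against normal spleen the rows compared were the 4 members alone, described above. Both sets hold the reads of miR-1a-3p again as miR-1b-5p.

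The profile over the 4 libraries most like that of miR-1a-3p was that of miR-206-3p. Likeness was the root mean square difference of log2 CPM, each profile centred on its own mean, among 142 other miRNAs that had 30 or more counts in each library. It was 0.17 for miR-206-3p, against a median of 1.49 over the 142. Next came miR-152-3p (0.32), the erythroid miR-451a (0.33), the epithelial miR-200b-3p (0.37) and miR-194-5p (0.37), which is abundant in gut and liver. miR-133a-3p followed in place 6 (0.38), then the liver miRNA miR-122-5p (0.41) and miR-192-5p (0.41), also of gut and liver. All of them were highest in normal BM and lowest in normal spleen. The erythroid miR-451a stood, in BM, at 1152 CPM in the AML library and 5126 CPM in the normal one. In spleen it stood at 1840 CPM in the AML library and 474 CPM in the normal one. Other rows of the erythroid list differed. Erythroid miR-486a-5p was at 6344 CPM in AML BM, 4403 in normal BM, 6945 in AML spleen and 8840 in normal spleen. In the same order miR-144-3p had 36, 27, 2 and 25 counts. Its other arm, miR-144-5p, had 11, 26, 9 and 4, so it was highest in normal BM and lowest in normal spleen. The 4 points of a profile are single libraries, so likeness over them is a description.

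Summed reads of stromal, epithelial, gut, liver and endothelial markers, like those of the members, were highest in normal BM and lowest in normal spleen. Summed reads of the 9 rows of the stromal list (miR-143, miR-145a, miR-199 and miR-214) made up 1.84% of AML BM, 2.64% of normal BM, 1.97% of AML spleen and 0.279% of normal spleen. The 7 epithelial rows made up 1.05% of AML BM, 1.43% of normal BM, 0.861% of AML spleen and 0.179% of normal spleen. The 4 gut rows made up 0.805% of AML BM, 1.24% of normal BM, 0.703% of AML spleen and 0.121% of normal spleen. The liver list, led by miR-122-5p, was at 0.317% in AML BM, 0.689% in normal BM, 0.291% in AML spleen and 0.0843% in normal spleen. The endothelial list, both arms of miR-126a, was at 0.473% in AML BM, 0.597% in normal BM, 0.422% in AML spleen and 0.0512% in normal spleen. In AML spleen against normal spleen 4 of 4 stromal, 2 of 2 endothelial, 1 of 1 liver, 4 of 5 epithelial, 2 of 2 gut and 1 of 2 neural rows compared were higher, where 25.0% of all miRNAs compared were, and the other neural row was lower. In AML BM against normal BM 3 of 7 stromal, 0 of 2 endothelial, 1 of 1 liver, 1 of 6 epithelial, 1 of 3 gut and 1 of 1 neural rows were lower, where 12.0% of all were. Unlike its list, the epithelial miR-200c-3p was highest in normal spleen. It had 178 CPM in AML BM, 333 in normal BM, 213 in AML spleen and 411 in normal spleen. In AML BM against normal BM its log2 ratio was -0.90, near the list median of -0.78. Epithelial miR-141-3p had another order, with 0 counts in AML BM, 4 in normal BM, 9 in AML spleen and 5 in normal spleen. The neural list was at 0.0638% in AML BM, 0.148% in normal BM, 0.157% in AML spleen and 0.0294% in normal spleen, with overlapping intervals in normal BM and AML spleen. Its member miR-9-5p had 170 counts in AML BM, 286 in normal BM, 268 in AML spleen and 92 in normal spleen, and neural miR-124-3p was at 0 in all but AML spleen, where it had 5. Rows at 0 were miR-214-5p in all but AML spleen, miR-122-3p in all but AML BM, miR-215-5p in all but normal BM, and miR-141-3p and miR-138-5p in AML BM. The part of these tissues in the level of the muscle miRNAs was not tested.

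The summed myeloid and lymphocyte lists were lowest in normal BM and highest in normal spleen, although single rows differed. The 4 rows of the myeloid and pan-haematopoietic list, both arms of miR-142a and of miR-223, summed to 504 counts in AML BM, 150 in normal BM, 480 in AML spleen and 2815 in normal spleen. These are 0.186% of the reads of AML BM, 0.0726% of normal BM, 0.266% of AML spleen and 0.646% of normal spleen. The library with the most reads of muscle miRNAs, normal BM, thus had the fewest of this list, and the 3 separate members held 7368 counts there. miR-142a-3p was at 606 CPM in the AML library of BM and 149 CPM in the normal one. In spleen it was at 1311 CPM in the AML library and 4346 CPM in the normal one. The myeloid miR-223-3p had 12 counts in AML BM, 10 in normal BM, 4 in AML spleen and 28 in normal spleen, so this defining marker was thinly covered in every library. Its other arm, miR-223-5p, had another order, with 149 counts in AML BM, 42 in normal BM, 10 in AML spleen and 36 in normal spleen. The lymphocyte list made up 0.397% of AML BM, 0.341% of normal BM, 1.67% of AML spleen and 2.87% of normal spleen. In AML BM against normal BM 0 of its 4 rows were called, where 29 of all 216 miRNAs compared were higher and 26 lower. The median log2 ratio of the 4 rows was -0.12. Of the 4, miR-150-5p alone had a log2 ratio above 0 there, at 0.86, with 379 counts in AML BM and 154 in normal BM. In AML spleen 2 of the 4 were called lower than in normal spleen, where 46 of all 216 miRNAs compared were. The rows miR-150-3p and miR-342-5p were not called, at log2 ratios of 0.40 and 0.46. The erythroid list was at 1.41% to 1.67% in every library, although its member miR-451a followed miR-1a-3p. The miR-486a-5p row of the list held 1779 counts in AML BM, 913 in normal BM, 1340 in AML spleen and 3466 in normal spleen. The miR-486a-3p row held 1759, 889, 1304 and 3361 in the same order. Counts this close may be the same reads counted again, which would raise the share of the list and could change the order of libraries. Whether these differences bear on the muscle miRNAs was not tested.

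**Figure D4:**
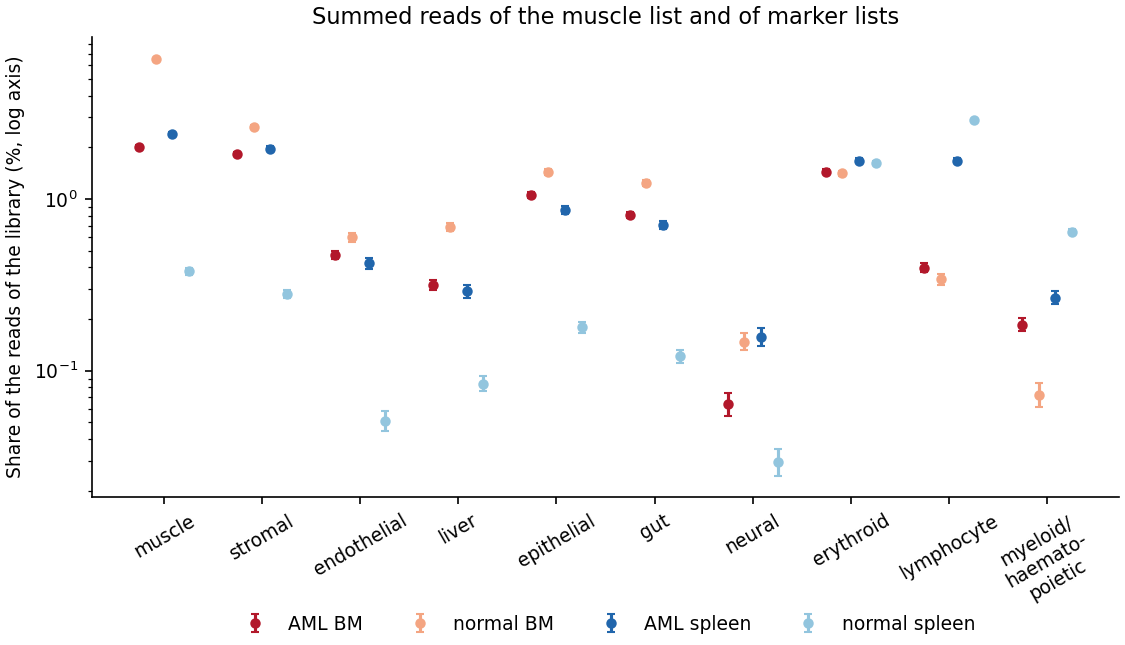
Summed reads of the muscle list and of 9 marker lists as a share of the reads of each library (percent, log axis), with 95% exact intervals; libraries run AML BM, normal BM, AML spleen, normal spleen from left to right. Muscle, stromal, endothelial, liver, epithelial and gut lists are highest in normal BM and lowest in normal spleen. The lymphocyte and the myeloid and pan-haematopoietic lists are lowest in normal BM. The muscle list holds the reads of miR-1a-3p again as miR-1b-5p, and the erythroid list may hold those of miR-486a-5p again as miR-486a-3p.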

How the data were processed

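Macrophages were sorted from BM and spleen, and small RNA was sequenced from total RNA, per the labels' protocols. The deposited table holds raw read counts per miRNA. Its TPM values, named so per the file headers, equalled each count per 1000000 reads of its library, with no length term, and were used only for that check. The aligner, annotation, build and any handling of reads that match several miRNAs were not stated in the labels or headers; ambiguous reads can be counted in more than 1 row, as for miR-1a-3p and miR-1b-5p.

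Samples were grouped by title. Libraries were scaled with TMM factors (edgeR 4.0.16, R 4.3.3) of 1.03 in AML BM, 1.00 in normal BM, 1.07 in AML spleen and 0.900 in normal spleen. Intervals were exact conditional (Clopper-Pearson) or exact Poisson at 95%. Differences of ratios and changes of a ratio between members have Wald intervals from the counts. DESeq2 1.42.0 was an alternative. The ratio intervals and the edgeR fit were tested on simulated data that were easier than these. Simulated counts for the ratios had counting error alone. Those for the fit had a known library scale and a lower spread between libraries (dispersion) than the 0.417 fitted here. The simulations therefore do not show how the methods perform on these libraries. The text names the members, the muscle list, the 8 nearest profiles and members of the marker lists. Members and lists were chosen with earlier results of these data known.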

Additional observations from a re-analysis of the deposited data

Results flagged for a closer look

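Each of these miRNAs moved one way in AML BM against normal BM and the opposite way in AML spleen against normal spleen, with both counting intervals excluding no change. There is 1 library for each tissue and state, so the difference was not tested. The difference of the AML log2 ratios, spleen minus BM, was 4.14 for mmu-miR-1a-3p and 4.14 for mmu-miR-1b-5p, which holds the same reads. It was 5.08 for mmu-miR-133a-3p and 3.90 for mmu-miR-206-3p. Among the miRNAs with the nearest profiles it was 3.10 for mmu-miR-152-3p, 4.11 for mmu-miR-451a and 2.91 for mmu-miR-200b-3p. It was 2.95 for mmu-miR-194-5p, 2.70 for mmu-miR-122-5p and 2.91 for mmu-miR-192-5p. The last group was chosen for its likeness to miR-1a-3p over the same libraries, so its direction is fixed by that choice.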

How the results depend on the processing

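No paired analysis was possible because each group has 1 library and the labels give no replicate numbers. Under 4 other scalings, all 64 ratios of members kept their direction and their side of the 2-fold threshold. The 64 include the repeat row miR-1b-5p, and a scaling shifts all log2 ratios of a comparison equally. They are therefore not separate checks. One of the 4 scalings, TMM factors without the member rows, was chosen after seeing the data. Ratios on the log2 scale shifted, in AML spleen against normal spleen, by -0.24 with DESeq2 size factors and by 0.25 on total counts, and those of normal spleen against normal BM by 0.24 and -0.16. When the 10 most abundant miRNAs were left out of the totals, the shift was 0.20 in AML BM against normal BM. The difference of the AML log2 ratios of miR-1a-3p was 3.88 with DESeq2 size factors and 4.35 on total counts, and that of miR-1b-5p 3.87 and 4.35. The numbers of miRNAs called in AML BM against normal BM, AML spleen against normal spleen, normal spleen against normal BM and AML spleen against AML BM were 55, 100, 155 and 74. With a minimum of 1 count they were 119, 179, 259 and 141, and with a minimum of 100 counts 24, 64, 96 and 37, as more or fewer miRNAs enter. Members called stayed the same under both. DESeq2 called 8 miRNAs for tissue, where edgeR called 0; the cause was not tested. Of the 8 nearest profiles, 8 were shared with DESeq2 size factors and 6 with at least 100 counts in every library. Depth limits miR-133b-3p, miR-499-5p and miR-133a-5p, and miR-133a-3p in normal spleen at 40 counts.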

Other observations

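miR-1a-3p did not keep a fixed proportion to miR-122-5p or to miR-143-3p, the miRNAs of other tissues set against it here. For every 1000 reads of miR-1a-3p, the liver miRNA miR-122-5p had 349 reads [323 to 378] in AML BM and 235 [222 to 250] in normal BM. In spleen it had 273 [247 to 301] in the AML library and 499 [439 to 567] in the normal library. The stromal and smooth-muscle miRNA miR-143-3p had 1612 reads [1533 to 1696] per 1000 of miR-1a-3p in AML BM and 682 [655 to 710] in normal BM. It had 1363 [1285 to 1447] in AML spleen and 1196 [1083 to 1321] in normal spleen. The ratio to miR-1a-3p was thus 2.36-fold (Wald interval 2.22 to 2.52) in AML BM relative to normal BM for miR-143-3p and 1.48-fold (1.35 to 1.63) for miR-122-5p. In AML spleen relative to normal spleen it was 1.14-fold (1.02 to 1.28) for miR-143-3p and 0.547-fold (0.467 to 0.641) for miR-122-5p. The same change for the member miR-133a-3p was 1.81-fold (1.27 to 2.57). By root mean square difference of log2 CPM, some miRNAs of other tissues lay nearer to miR-1a-3p than miR-133a-3p did (0.38). Among them were miR-451a (0.33), miR-200b-3p (0.37) and miR-194-5p (0.37). A changing proportion to miR-1a-3p thus did not set other tissues apart from the members.

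The 5p arm of miR-133a had 15.5 reads [1.86 to 57.2] per 1000 reads of the 3p arm in AML BM and 14.9 [4.81 to 35.2] in normal BM. In normal spleen it had 100 reads [26.0 to 277] per 1000, from 4 counts beside 40 of the 3p arm. Relative to normal BM this ratio was 6.7-fold (Wald interval 1.73 to 26.0), on 4 and 5 counts of the 5p arm. In AML spleen the 5p arm had 0 counts beside 189 of the 3p arm, with an upper limit of 19.7 reads per 1000.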
